A study of Mus musculus with 4 samples.

Results

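The Toll-like receptor genes were taken as all rows of the deposited table whose symbol was Tlr1 to Tlr9 or Tlr13. This gave 10 genes with 11 transcripts, of 16545 symbols and 18061 transcripts in the table. They were chosen by the authors' group means of OHT and EtOH samples, so their values in that comparison are a description and carry no test. The cells were MLL-AF9 leukaemic cells, a mouse model of acute myeloid leukaemia in which a fusion of the Mll and Af9 genes drives the growth of myeloid progenitors. They came from bone marrow of C57BL/6 mice and were kept in liquid culture. The 2 OHT samples and the 2 EtOH samples were each treated for 72 h and shared the genotype Ring1a-/-, Ring1b f/f and Cdkn2a-/-. Ring1 and Rnf2 (the current symbols of Ring1a and Ring1b) encode the catalytic subunits of Polycomb repressive complex 1 (PRC1), and OHT is the usual abbreviation of hydroxytamoxifen, which activates inducible recombinases. The series title puts the question as the part PRC1 activity plays in keeping leukaemic cells what they are. The sample titles call the OHT samples RingKO, and those of the EtOH samples lack this word. The labels name no recombinase and do not say how many mice or cultures the samples came from. Cells given OHT that lack the floxed allele were not analysed here.

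Toll-like receptors are membrane proteins of innate immune cells that bind molecules of microbes through leucine-rich repeats outside the cell or inside endosomes. Through a cytoplasmic TIR domain they recruit the adaptors encoded by Myd88 or Ticam1, which lead to NF-kB and interferon regulatory factors. Surface receptors mostly bind lipids and proteins, and endosomal receptors bind nucleic acids after transport by the chaperone encoded by Unc93b1. Monocytes, macrophages, neutrophils and dendritic cells carry many members of the family, and progenitors generally fewer.

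The deposited file holds the authors' mean normalised count of each group, and these means resolve into whole reads of 2 libraries per group, called A and B here. The letters mean only that A has the larger size factor, and neither letter could be tied to a numbered sample. Totals ran from 3841243 to 6255320 reads per library. Values below are normalised reads, that is, reads divided by the library's size factor, and a transcript is called higher or lower where its adjusted p in the authors' deposited table is under 0.05. Nothing in the labels says that the samples of a group were separate cultures, so p-values reflect the spread of these samples alone, and that spread may be technical. Rnf2 was not called, with deposited means of 757 in OHT and 636 in EtOH samples. Ring1 and Cdkn2a, null in all samples per the labels, had deposited means of 122 and 48.5 in OHT and 68.3 and 49.8 in EtOH samples. The labels do not say which exons any of these alleles lack, so reads over whole transcripts neither bear the genotypes out nor go against them.

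The EtOH libraries were unlike each other in these genes. Of the family, 6 members had a mean of at least 50, and all 6 were higher in EtOH library A than in EtOH library B, with a median log2 ratio of 0.97 and a range of 0.82 to 1.90. Across all 8378 transcripts of that level the median log2 ratio was 0.08, and the 10th and 90th percentiles were -0.48 and 0.76. The same 6 members had a median log2 ratio of 0.00 between the OHT libraries. Fold changes of the members that moved most with EtOH library A or B are therefore also given without it.

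With OHT, 5 of the 10 receptor genes rose in the authors' deposited table, namely Tlr7, Tlr9, Tlr13, Tlr2 and Tlr5, and none fell. Of all transcripts 3.62% were called higher and 1.85% lower (2.39% and 0.902% at an adjusted p under 0.01, 4.59% and 2.72% under 0.1), figures from which nothing is read here because the genes were chosen with this contrast in view. The median log2 fold change was 1.53 over the 10 genes and 0.04 over all transcripts. In 8 genes both OHT libraries lay above both EtOH libraries, as in 26.4% of all transcripts, with 24.6% the other way round; the exceptions were Tlr4 and the hardly detected Tlr3. In these bulk samples more cells that express a gene and more RNA per cell cannot be told apart. Limma-voom on the resolved reads, which called 9.72% of transcripts higher and 5.49% lower, called the same 5 genes. It called 8 genes, with Tlr4, Tlr6 and Tlr8 added, when EtOH library A was left out, a fit that called 15.6% of transcripts higher and 10.1% lower.

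**Figure D1:**
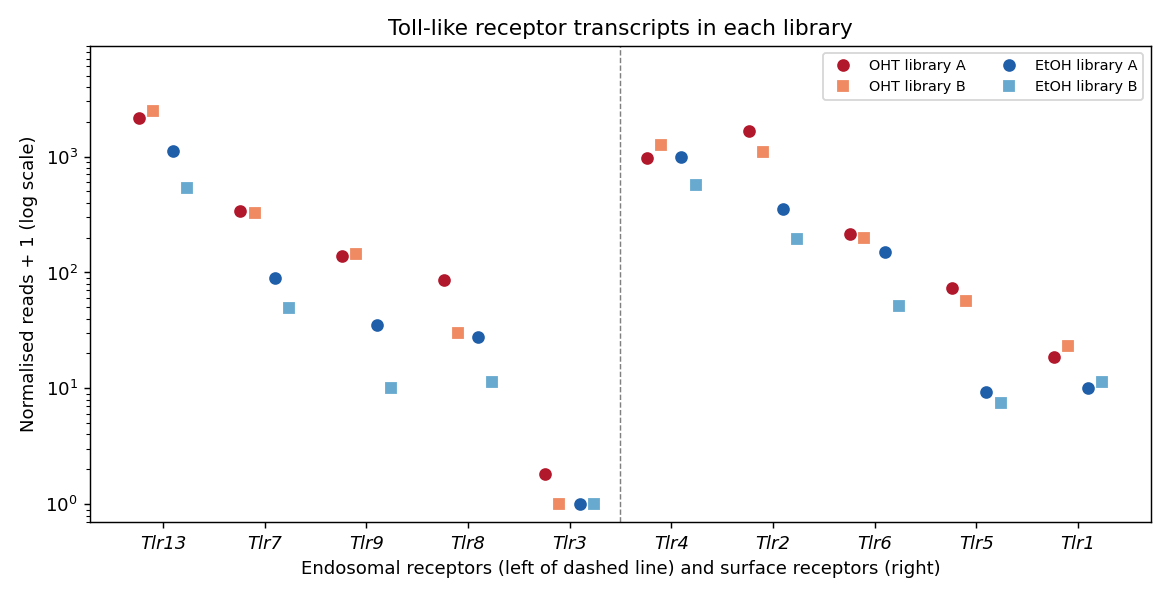
Normalised reads plus 1 (log axis) of the main transcript of each of the 10 receptor genes, with 1 point per library, OHT in red and orange and EtOH in dark and light blue, endosomal receptors left of the dashed line. Tlr13, Tlr7, Tlr9, Tlr2 and Tlr5 show both OHT points well above both EtOH points, Tlr4 overlaps, and Tlr3 lies at the bottom of the axis.

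Among the endosomal receptors, Tlr13, which in mice binds bacterial ribosomal RNA, was the most abundant. It had 2166 and 2449 normalised reads in the OHT libraries, against 1114 and 533 in the EtOH libraries. The groups did not overlap, although EtOH library A stood much closer to the OHT libraries than EtOH library B did. The authors' deposited fold was 2.80, and the limma-voom log2 fold change was 1.56 ± 0.31 (SE). It was 2.12 with EtOH library A left out and 1.05 with B left out.

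Tlr7, a receptor for single-stranded RNA, had 338 and 323 normalised reads in the OHT libraries, against 87.9 and 48.2 in the EtOH libraries. The OHT libraries were nearly alike and far above both EtOH libraries. The deposited fold was 4.79 and the limma-voom log2 fold change 2.28 ± 0.33 (SE), and 2.76 or 1.91 with EtOH library A or B left out.

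Tlr9, the receptor for unmethylated CpG DNA, had 138 and 144 normalised reads with OHT, against 34.0 and 9.11 with EtOH. The low value in EtOH library B came from 7 reads. The deposited fold was 6.27 and the limma-voom log2 fold change 2.82 ± 0.51 (SE). It was 3.85 with EtOH library A left out and 2.03 with B left out.

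Tlr8, the neighbour and closest relative of Tlr7, had 84.8 and 29.0 normalised reads with OHT and 26.5 and 10.4 with EtOH. The groups only just separated, since OHT library B and EtOH library A lay side by side. It was not called, and its limma-voom log2 fold change of 1.51 ± 0.65 (SE) became 0.70 without OHT library A, 2.22 without OHT library B and 2.24 without EtOH library A. Tlr3, which binds double-stranded RNA and signals through Ticam1 and not Myd88, had 1 read in OHT library A and 0 in the other libraries. Both groups were at or under a floor of 3 reads, so no fold is given.

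Among the surface receptors, Tlr2, which pairs with Tlr1 or Tlr6 to bind bacterial lipoproteins, had 1646 and 1094 normalised reads with OHT, against 353 and 195 with EtOH. All of the OHT values were far above the EtOH values. The deposited fold was 4.98 and the limma-voom log2 fold change 2.31 ± 0.31 (SE). Leaving out EtOH library A or B gave 2.76 or 1.92.

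Tlr5, the flagellin receptor, had 73.1 and 55.8 normalised reads with OHT, against 8.29 and 6.51 with EtOH. Its EtOH values rested on 10 and 5 reads, and unlike most of the family the EtOH libraries were close to each other. The deposited fold of 7.73 was the highest of the 5 risers, and limma-voom gave a log2 fold change of 3.02 ± 0.52 (SE).

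The partners of Tlr2 had smaller differences and were not called. Tlr6 had 212 and 195 normalised reads with OHT and 148 and 50.8 with EtOH. The EtOH libraries were far apart, and the limma-voom log2 fold change of 1.14 ± 0.42 (SE) was 1.995 with EtOH library A left out and 0.46 with B left out. The main Tlr1 transcript had 17.6 and 22.3 normalised reads with OHT, against 9.12 and 10.4 with EtOH, and a limma-voom log2 fold change of 0.98 ± 0.54 (SE). These are few reads, at most 21 in a library. The other Tlr1 transcript had 1 read in the OHT libraries together and 4 in the EtOH libraries. Tlr1 and Tlr6 are near-identical in part: 16.6% of the 50-base words of the shorter Tlr1 transcript and 15.3% of those of the longer one also occur in Tlr6. The Tlr1 transcripts share still more with each other, 88.7% of the words of the longer and 96.5% of those of the shorter one. How the authors' counting treated reads in shared sequence is not given in the sources used here, so the Tlr1 and Tlr6 values are uncertain.

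Tlr4, the lipopolysaccharide receptor, was the only well-measured member whose groups overlapped. It had 977 and 1267 normalised reads with OHT, against 990.1 and 562 with EtOH. EtOH library A was as high as OHT library A. Its deposited fold of 1.44 was not called, and the limma-voom log2 fold change of 0.56 ± 0.28 (SE) ranged from 0.17 without EtOH library B to 0.99 without EtOH library A.

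**Figure D2:**
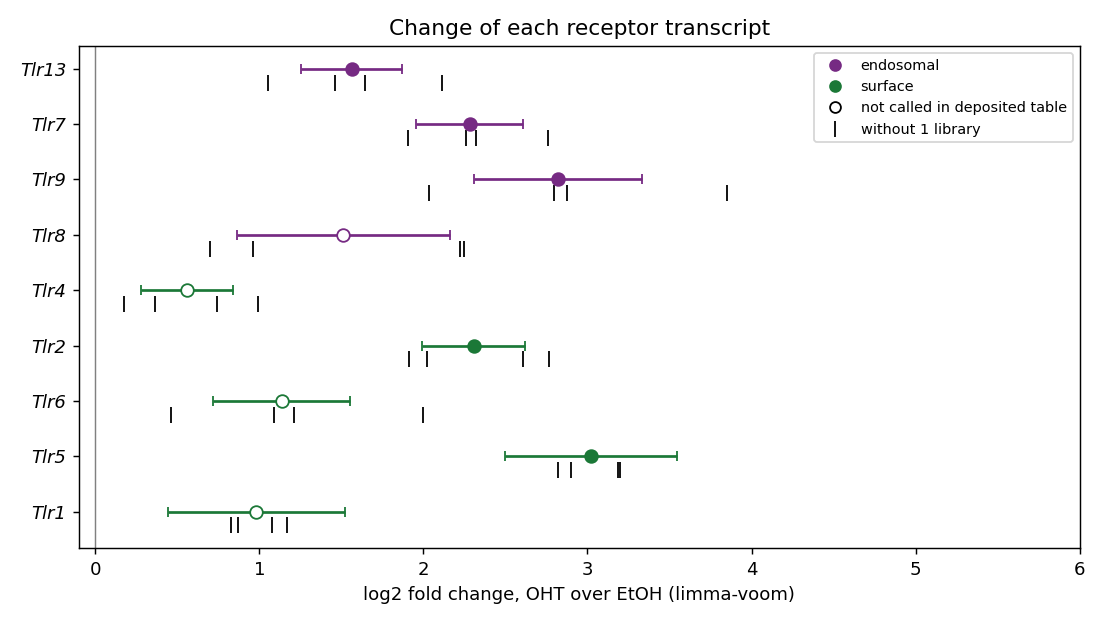
Limma-voom log2 fold change, OHT over EtOH, of the 9 receptor genes with enough reads for the fit; bars are standard errors, filled circles are calls of the authors' deposited table and ticks are the values with 1 of the 4 libraries left out. All values lie above 0, from 0.56 for Tlr4 to 3.02 for Tlr5, and the ticks of Tlr9, Tlr8 and Tlr6 are the most widely spread.

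Endosomal and surface receptors each held genes that rose and genes that were not called. Of the 5 endosomal genes 3 were called higher and of the 5 surface genes 2. The median log2 fold change in the authors' deposited table was 1.57 for the endosomal genes, or 1.91 over the 4 with more than 3 reads in a group, and 1.03 for the surface genes. The means were 1.67 and 1.55. The classes overlapped gene by gene, with the endosomal genes above the floor running from 1.49 to 2.65 and the surface genes from 0.53 to 2.95. No test of the difference between the classes was made.

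Per transcript length, 3 genes made up most of the family in every library. In the OHT libraries Tlr13 had 534 and 603 normalised reads per kb, Tlr2 546 and 363, and Tlr4 240 and 311. In the EtOH libraries Tlr13 had 274 and 131 normalised reads per kb, Tlr4 243 and 138, and Tlr2 117 and 64.8. Tlr13 and Tlr2 overlapped in the OHT libraries and Tlr13 and Tlr4 in the EtOH libraries, so neither pair can be ordered. Below them in the OHT libraries came Tlr7 (85.4 to 89.4 per kb), Tlr6 (53.1 to 57.8) and Tlr9 (39.6 to 41.4), which did not overlap. Tlr5 and Tlr8 overlapped below those, and Tlr1 and Tlr3 were lowest. The places of Tlr1 and Tlr6 are uncertain because of the shared sequence described above. In the EtOH libraries Tlr6 and Tlr7 overlapped, as did Tlr9 and Tlr8, and Tlr5 (2.04 to 2.59 per kb) stood above Tlr3 alone.

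The make-up of the family differed between the groups mainly in Tlr2 and Tlr4. Tlr2 held 35.0% and 24.4% of the family's summed normalised reads per kb in the OHT libraries, against 16.2% and 17.4% in the EtOH libraries. Tlr4 held 15.4% and 20.9% with OHT, against 33.6% and 37.1% with EtOH. Tlr13 held a like share in both, 34.2% and 40.5% with OHT and 38.0% and 35.3% with EtOH. The endosomal genes together held 44.1% and 49.6% with OHT and 43.6% and 40.2% with EtOH, so the lowest OHT share was just above the highest EtOH share. The sum over the family was 1560 and 1490.3 normalised reads per kb in the OHT libraries, against 722 and 372 in the EtOH libraries.

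**Figure D3:**
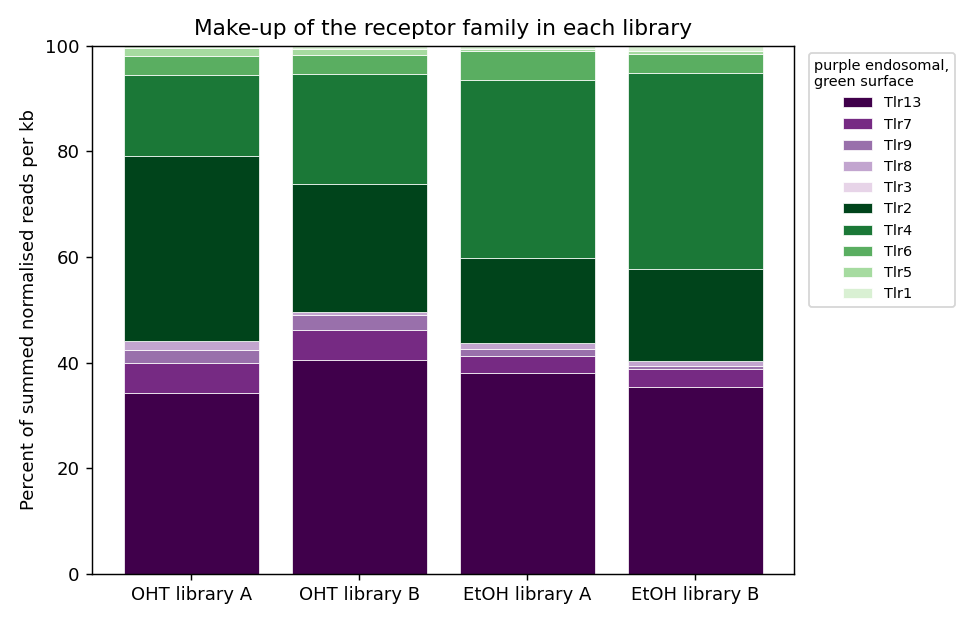
Share of each receptor gene in the family's summed normalised reads per kb, in percent, for each of the 4 libraries, endosomal genes in purple and surface genes in green. The Tlr2 segment is taller in the OHT bars (35.0% and 24.4%) than in the EtOH bars (16.2% and 17.4%), that of Tlr4 is shorter, and the purple total stays between 40.2% and 49.6%.

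No motif searched was found in the promoter windows of all the genes that rose. Windows from 250 bases before to 50 bases after the start of the gene were read from RefSeq on GRCm38.p6, which held 10 windows for 8 of the genes and none for Tlr4 and Tlr7. The 4 risers with a window are shown 5′ to 3′ along the gene, with capitals on the ETS core GGAAGT, the core of sites of the myeloid factor PU.1, on either strand (ACTTCC on the other).
Tlr13, chrX:106143025-106143324, + strand: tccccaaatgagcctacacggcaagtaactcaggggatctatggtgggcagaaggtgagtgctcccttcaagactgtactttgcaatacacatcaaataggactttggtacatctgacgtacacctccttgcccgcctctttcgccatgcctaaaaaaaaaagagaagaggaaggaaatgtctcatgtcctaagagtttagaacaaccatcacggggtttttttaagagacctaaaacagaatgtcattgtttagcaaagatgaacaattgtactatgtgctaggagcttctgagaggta
Tlr9, chr9:106222348-106222647, + strand: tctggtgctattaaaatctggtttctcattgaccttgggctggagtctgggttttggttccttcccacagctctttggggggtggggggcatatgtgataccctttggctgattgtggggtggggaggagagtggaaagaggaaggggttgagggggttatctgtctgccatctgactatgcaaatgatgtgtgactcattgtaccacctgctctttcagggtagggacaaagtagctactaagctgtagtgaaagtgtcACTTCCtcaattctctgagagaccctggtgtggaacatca
Tlr2, chr3:83841559-83841858, - strand: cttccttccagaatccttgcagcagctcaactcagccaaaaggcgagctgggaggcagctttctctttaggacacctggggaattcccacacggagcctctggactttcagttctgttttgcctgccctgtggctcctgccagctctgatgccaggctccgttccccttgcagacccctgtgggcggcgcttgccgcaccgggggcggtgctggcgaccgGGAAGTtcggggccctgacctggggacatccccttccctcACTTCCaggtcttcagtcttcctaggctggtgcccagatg
Tlr5, chr1:182954538-182954837, + strand: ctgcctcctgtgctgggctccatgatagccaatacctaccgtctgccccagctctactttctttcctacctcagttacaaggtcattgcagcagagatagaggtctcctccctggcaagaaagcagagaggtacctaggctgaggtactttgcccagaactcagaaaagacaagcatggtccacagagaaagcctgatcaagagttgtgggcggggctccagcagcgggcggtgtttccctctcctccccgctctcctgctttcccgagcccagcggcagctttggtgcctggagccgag

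The ETS core was found in the windows of Tlr2, with 2 copies, and of Tlr9, and in those of Tlr1 and Tlr6, which were not called; it was not among the letters of the Tlr5 and Tlr13 windows. It occurs in 23.8% of all 32851 windows. The AP-1 letters TGANTCA, found in 7.81% of all windows, occurred once in the family, in Tlr9. The kappa-B consensus, in 8.46% of all windows, was found in Tlr2 and Tlr3, and the C/EBP letters TTGCNNAA, in 10.8% of all windows, in Tlr13, Tlr3, Tlr6 and Tlr8. The RUNX letters TGTGGT (16.8% of all windows) and the interferon-stimulated response element (3.44%) were found only in a Tlr6 window among these 10. All motifs were read on both strands, and the letters of different motifs may overlap. CpG dinucleotides, which mark the islands where Polycomb complexes are commonly found, numbered 0 in the Tlr9 window, 5 in that of Tlr13, 8 in that of Tlr5 and 11 in that of Tlr2, with a median of 6 over the family's windows and 7 over all.

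Of the genes beside the receptors in the gene order of GRCm38.p6, Susd4 rose. Tlr7 lies next to Tlr8, and Tlr1 next to Tlr6, so these pairs are each other's neighbours. Of 12 other nearest protein-coding neighbours in the table, 1 was called higher and none lower in the authors' deposited table, where 3.62% and 1.85% of all transcripts were. It was Susd4, a complement-regulating membrane protein gene beside Tlr5, with 36.1 and 38.0 normalised reads with OHT and 4.98 and 0 with EtOH (adjusted p = 0.00301). Both OHT libraries lay above both EtOH libraries in Susd4 and in the uncalled Alas1, Sfrp2, Klf3, Fam114a1, Fam149a and Atp7a. This is a larger share of the 12 neighbours than the 26.4% found over all transcripts. It was not tested, some of these genes had few reads, and nothing is read from it. Alas1, beside Tlr9, had 2417 and 2536 normalised reads with OHT and 1793 and 1862 with EtOH (adjusted p = 0.536). Sfrp2, a secreted Wnt-binding protein gene beside Tlr2, had 13 and 5 reads with OHT and 0 and 0 with EtOH (adjusted p = 0.369). Klf3, a transcription factor gene beside Tlr1, had 320.0 and 232 normalised reads with OHT and 176 and 84.6 with EtOH (adjusted p = 0.252). Fam114a1, beside Tlr6, had 136 and 115 normalised reads with OHT and 65.5 and 78.1 with EtOH (adjusted p = 0.272). Others were nearly level: Pgk1, a glycolytic enzyme gene beside Tlr13, had deposited means of 2745.5 with OHT and 2609 with EtOH, and Twf2, an actin-binding protein gene beside Tlr9, had 869 with OHT and 841 with EtOH. Tmsb4x, beside Tlr8, had 937 with OHT and 989 with EtOH. Prps2, of nucleotide synthesis and beside Tlr7, went the other way. It had 403 and 505 normalised reads with OHT and 573 and 542 with EtOH (adjusted p = 0.855). Both OHT libraries were thus below both EtOH libraries, as in 24.6% of all transcripts. Fam149a, Trim32 and Atp7a, beside Tlr3, Tlr4 and Tlr13, had at most 3 reads in any library. On these few reads Fam149a and Atp7a also had both OHT libraries above both EtOH libraries.

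Transcripts with the profile most like those of the most abundant members were found by the distance between centred log2 profiles over the 4 libraries. For Tlr13 they were Ece1 (distance 0.07), Rhoc (0.08) and Aim1 (0.12). For Tlr4 they were Nsf (0.03), Snap47 (0.03) and Nfil3 (0.06). These distances over 4 libraries are a description.

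Among the genes that work with the receptors, Irg1, Lgmn, Cd80 and others rose and Ticam2 fell. The 8 lists of co-receptors, proteases, adaptors, kinases, inhibitors, transcription factors, induced genes and other sensors held 123 measured genes. Of these, 16 were called higher in the authors' deposited table (13.01%, against 3.62% of all transcripts) and 1 lower (0.813%, against 1.85%). Their median log2 fold change was 0.71, against 0.04 over all transcripts. Limma-voom called 29 higher and 1 lower (over all transcripts 9.72% and 5.49%), and 46 higher and 2 lower without EtOH library A (over all transcripts of that fit 15.6% and 10.1%). These lists were drawn up with earlier results of these data known.

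Of 11 co-receptor and chaperone genes 1 rose, Cd180, whose product restrains Tlr4 signalling and acts in B cells. It had 281 and 271 normalised reads with OHT and 117 and 43.0 with EtOH (deposited fold 3.42, adjusted p = 0.000248). Its exons overlap those of Mast4 on the other strand, which was also called higher (adjusted p = 0.00171), and the kit does not mark strand. By limma-voom the log2 fold change of Cd180 was 1.86, and it was 2.67 with EtOH library A left out and 1.24 with EtOH library B left out. Unc93b1, the carrier of endosomal receptors, had deposited means of 228 with OHT and 159 with EtOH and was not called (adjusted p = 0.63). The lipopolysaccharide co-receptor Cd14 had deposited means of 593 and 353 in OHT and EtOH samples (adjusted p = 0.867), and its partner Ly96 only 18.6 and 6.34 (adjusted p = 0.531). The chaperone Hsp90b1 had 2985 and 3715 normalised reads with OHT and 3174 and 3465 with EtOH.

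Of 15 protease and trafficking genes 2 rose. A positive log2 fold change was found in 14 of them, and in 9332 of all 18061 transcripts. It was found in 8 of 11 co-receptor and chaperone genes and in 15 of 25 kinase and ligase genes. Lgmn, an endosomal protease that can cleave Tlr9, had 702 and 969 normalised reads with OHT and 236 and 53.4 with EtOH (adjusted p = 0.000475). The log2 fold change of Lgmn by limma-voom, 2.73, became 3.94 with EtOH library A left out and 1.80 with B left out. Pld4, an endolysosomal nuclease that degrades ligands of Tlr9, had 1611 and 1274 with OHT and 572 and 479 with EtOH (adjusted p = 4.53e-05). Ctsb, a cathepsin, had deposited means of 3704 with OHT and 1885 with EtOH and was not called (adjusted p = 0.0819).

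Among 4 measured TIR adaptor genes none rose and Ticam2 fell. Ticam2 encodes TRAM, which links endocytosed Tlr4 to Ticam1. It had 132 and 104 normalised reads with OHT, against 427 and 436 with EtOH. The groups were far apart and each was tight, with a deposited fold of 3.64 lower in OHT cells (adjusted p = 3.35e-06) and a limma-voom log2 fold change of -1.86 ± 0.26 (SE). Its exons overlap those of Tmed7 on the same strand, and Tmed7 had deposited means of 1306.5 with OHT and 1381 with EtOH (adjusted p = 1). Myd88, the adaptor of nearly all family members, had 945 and 790.4 normalised reads with OHT and 664 and 577 with EtOH and was not called (adjusted p = 0.501). Ticam1 had deposited means of 532 with OHT and 323 with EtOH (adjusted p = 0.593).

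Of 25 kinase and ligase genes 2 rose. Peli3, a ubiquitin ligase of the Pellino family, had 38 and 29 reads with OHT and 8 and 1 with EtOH (adjusted p = 0.0297). The log2 fold change of Peli3 by limma-voom, 3.02, was 4.06 with EtOH library A left out and 2.21 with B left out. Ikbke, a kinase of interferon regulatory factors, had a deposited fold of 1.87 (adjusted p = 0.0463), a call that limma-voom lost when OHT library A (adjusted p = 0.336) or library B (adjusted p = 0.0687) was left out. Antisense transcripts overlap it. The median of the list was 0.07, close to that of all transcripts.

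Of 17 negative regulators 2 rose, Nfkbia, the inhibitor of NF-kB, with a deposited fold of 2.03 (adjusted p = 0.0171), and Tnip3, an inhibitor of NF-kB activation, with 8.07 (adjusted p = 0.00313). With OHT library A left out, limma-voom gave Nfkbia an adjusted p of 0.116, and the limma-voom log2 fold change of Tnip3 was 3.16, with 3.78 without EtOH library A. Of 10 NF-kB and interferon regulatory factors 1 rose, Irf8, a factor of monocyte and dendritic cell development, with 1051 and 751 normalised reads with OHT and 272 and 156 with EtOH (adjusted p = 0.000327).

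Of 23 genes that receptor signalling commonly induces, 6 rose and none fell. Limma-voom called 9 of the 15 it tested higher and none lower (over all transcripts 9.72% and 5.49%). Irg1, which makes itaconate in activated macrophages, had 397 and 227 normalised reads with OHT and 24.9 and 6.51 with EtOH (adjusted p = 0.000306). The costimulatory molecules Cd80 and Cd86 had deposited folds of 7.03 (adjusted p = 0.000115) and 4.25 (adjusted p = 0.00203), and the adhesion molecule Icam1 one of 3.61 (adjusted p = 0.00124). The interleukins Il1a and Il1b had 5.02 (adjusted p = 0.0104) and 4.24 (adjusted p = 0.0107). The cytokines most used as a readout of the receptors were low: Tnf had 22.7 and 19.0 normalised reads with OHT and 14.1 and 7.81 with EtOH (adjusted p = 0.922), and Il6 had 12.6 and 27.9 with OHT and 66.3 and 22.1 with EtOH (adjusted p = 0.787). Among further uncalled genes, Ccl2 had 391 and 864 normalised reads with OHT and 128 and 35.2 with EtOH (adjusted p = 0.159). Ccl5 had 42 and 14 reads with OHT and 2 and 0 with EtOH (adjusted p = 0.0516). Limma-voom called Ccl2 and Ccl5 higher. Il1a, Il1b and Icam1 have antisense partners that an unstranded kit cannot separate from them. With EtOH library A left out, log2 fold changes by limma-voom were 5.42 for Irg1, 3.14 for Cd86 and 3.06 for Il1a, against 4.39, 2.20 and 2.34 with all libraries. Without EtOH library B they were 3.60 for Irg1 and 1.47 for Cd86.

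Of 18 other sensor genes 2 rose, Zbp1, a sensor of Z-form nucleic acids, with a deposited fold of 5.12 (adjusted p = 0.000190), and Dhx58, an RNA helicase, with 2.15 (adjusted p = 0.0302). Dhx58 has an antisense partner that an unstranded kit cannot separate, and its limma-voom call was lost with either OHT library left out (adjusted p = 0.232 for A, 0.0753 for B). The inflammasome sensor Nlrp3 had deposited means of 588 with OHT and 365 with EtOH and was not called (adjusted p = 0.444).

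**Figure D4:**
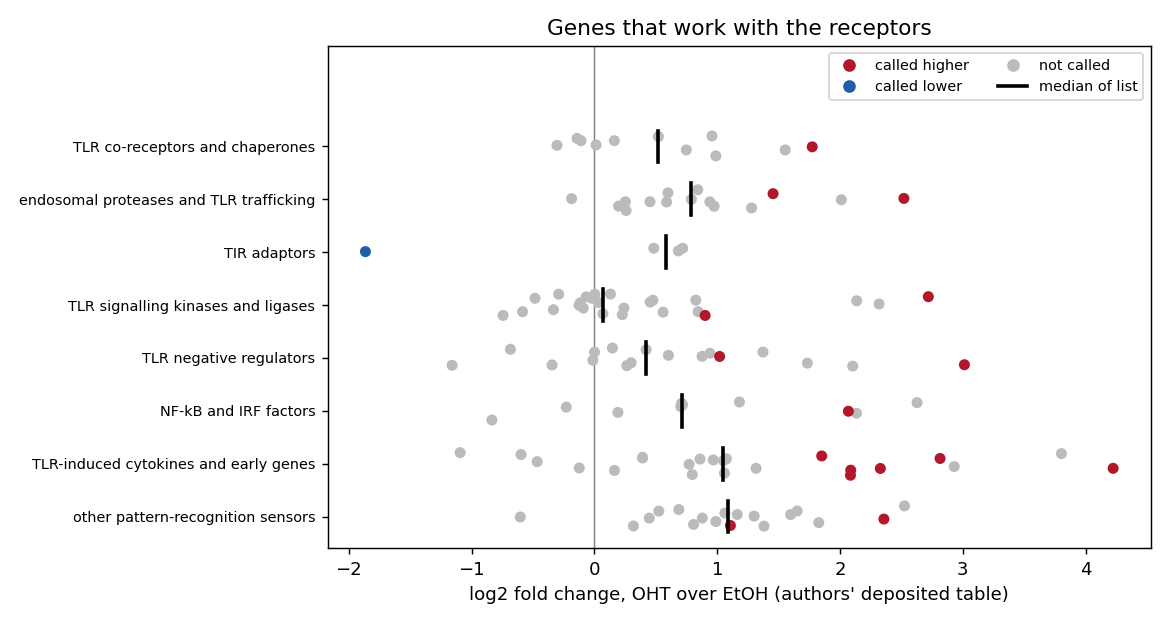
Log2 fold change, OHT over EtOH, in the authors' deposited table for 123 genes in 8 lists that work with the receptors, with 1 point per gene, calls coloured and the median of each list as a black bar. Of the genes 16 are called higher, with Irg1 farthest to the right, and Ticam2 is the 1 gene called lower.

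Most macrophage markers were higher with OHT, as the receptors were, and their part in the result was not tested. Of 12 measured macrophage markers all had a positive log2 fold change, as had 9332 of all 18061 transcripts. Of these markers 6 were called higher, against 3.62% of all transcripts. Their summed normalised reads were 5620 and 6071 in the OHT libraries, against 2954 and 1156 in the EtOH libraries. The receptor family summed to 5654 and 5580 with OHT, against 2775 and 1426 with EtOH, and here too EtOH library B was lowest. The macrophage marker Emr1 had 2375 and 3315 normalised reads with OHT and 1882 and 634 with EtOH, Csf1r 1471 and 746 with OHT and 229 and 124 with EtOH, and Cd68 819 and 1214 with OHT and 509 and 220.1 with EtOH. None of these 3 was called in the authors' deposited table. Limma-voom called Csf1r and Cd68 higher. Fcgr1, a further abundant macrophage marker, had 248.6 and 214 normalised reads with OHT and 286 and 147 with EtOH, so that its groups overlapped. Of 9 measured conventional dendritic cell markers 2 were called higher, with sums of 774 and 690 in OHT and 158 and 117 in EtOH libraries, of which Itgax, also made by macrophages, gave 625 and 528 with OHT and 98.7 and 79.4 with EtOH. Of 10 neutrophil markers 3 were called higher, Mmp8, Mmp9 and Cxcr2, with sums over the list of 12149 and 11723 in OHT and 6787 and 7535 in EtOH libraries. The uncalled neutrophil granule gene Ltf had 439 and 191 normalised reads with OHT and 376 and 898 with EtOH, and Ngp had 1243 and 960.1 with OHT and 661 and 1301 with EtOH. Of 5 monocyte markers 1 was called higher, with sums of 2581 and 2778 in OHT and 2183 and 1707 in EtOH libraries.

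Markers of other cell types known for Tlr7 and Tlr9 were not called. Of 8 measured plasmacytoid dendritic cell markers none was called, with sums of 469 and 611 in OHT and 437 and 456 in EtOH libraries. Most of each sum came from Bst2, with 348 and 528 normalised reads with OHT and 370 and 417 with EtOH. Limma-voom had enough reads to test only 2 of these 8 markers, so the absence of calls says little. Siglech, the defining lectin of these cells, had 0 reads in both OHT libraries and 1 in each EtOH library. Of 6 measured B cell markers none was called, with sums of 199.9 and 108 in OHT and 61.4 and 115 in EtOH libraries. Here Cd79b gave most, with 181 and 91.5 normalised reads with OHT and 56.4 and 108 with EtOH. Only 1 of the 6 had enough reads for limma-voom. The 3 T cell and 2 natural killer cell markers measured had list sums of at most 5.04 normalised reads in any library. The other marker lists had 3 erythroid genes with sums of 58.8 and 91.5 in OHT and 17.4 and 16.9 in EtOH libraries, with 1 gene called higher, and 5 fibroblast and endothelial genes with sums of 55.4 and 54.7 in OHT and 38.1 and 20.8 in EtOH libraries, with 1 called higher. The 8 mast cell and basophil genes summed to 2901 and 6787 with OHT and 4619 and 3730.4 with EtOH, and the 5 eosinophil genes to 726 and 775 with OHT and 1110.4 and 1875 with EtOH, with none called in either list in the authors' deposited table. Limma-voom called the basophil protease gene Prss34 higher (adjusted p = 0.0281) and the eosinophil peroxidase gene Epx lower (adjusted p = 0.0176).

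**Figure D5:**
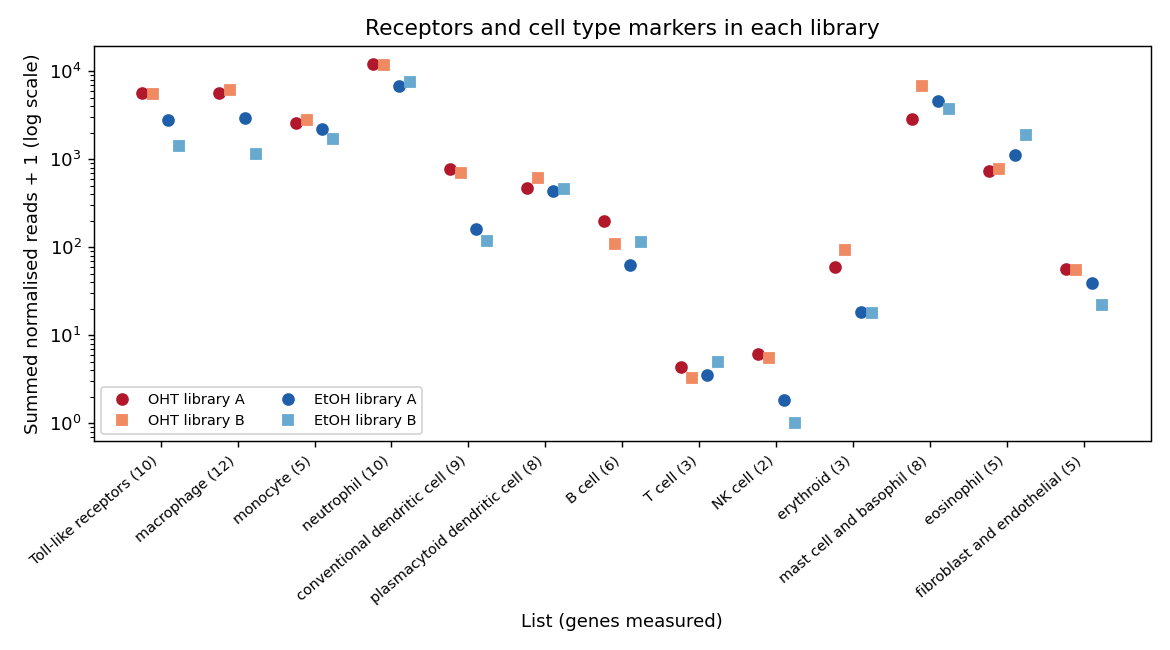
Summed normalised reads plus 1 (log axis) of the 10 receptor genes and of 12 lists of cell type markers in each library, OHT in red and orange and EtOH in dark and light blue. EtOH library B is lowest both for the receptors (1426) and for the macrophage markers (1156), and T cell and natural killer cell markers stay at or near the bottom.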

How the data were processed

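The data are 4 RNA-seq libraries, 2 of OHT-treated and 2 of EtOH-treated cells, whose preparation kit, per the labels' protocols, was Illumina's TruSeq RNA v2, which does not mark strand. TopHat, DESeq and genome build mm9 are named in the submitters' processing notes; the counting program is not given in the sources used here. The only file is the authors' deposited table, with a signal column per group (per the file headers a base mean, here a mean of normalised counts), a deposited ratio (OHT mean over EtOH mean), its deposited log2 and the authors' p-value and adjusted p-value. Columns of other samples numbered 0.

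Each deposited mean equals the mean of 2 whole numbers over 2 size factors, with 1 read added per library. All 18061 transcripts resolved to 1 solution in each group. Median-of-ratios size factors recomputed from the resolved numbers with the added read included matched those of the means; those recomputed without it deviated by a fraction of up to 0.0538 and serve as an alternative, and 100% of 4000 simulated means were recovered. Size factors were 1.19 and 0.896 for OHT libraries A and B and 1.21 and 0.768 for EtOH libraries A and B. The added read makes folds of low genes smaller; reads are printed without it.

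Limma 3.58.1 (voom, R 4.3.3) was fitted over all transcripts with at least 10 reads in 2 libraries, 11338 in all, with 2 residual degrees of freedom and Benjamini-Hochberg adjustment, and was tested on simulated data. It passed 9 of the 10 receptor genes and not Tlr3. The members and lists were chosen with earlier results of these data known. Named genes are all members, up to 4 calls per pathway list with the smallest adjusted p (Il1a and Il1b are further calls), up to 4 abundant markers per cell type, and 3 transcripts nearest in profile to Tlr13 and Tlr4. Other uncalled genes and the neighbours were named after their values were seen. As the table holds no counts per sample, calls are the authors' own and no count model was run. Other scalings, filters and thresholds, summed transcripts and fits without 1 library were the alternatives. Each symbol stands for its most abundant transcript. How reads shared between transcripts of a symbol were counted is not known. Low values of list and marker genes with several transcripts are therefore uncertain. Lengths come from GENCODE M21 by RefSeq accession; no coordinates are given on mm9.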

Additional observations from a re-analysis of the deposited data

How the results depend on the processing

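There were 10 limma-voom fits (other scalings, other filters, 1 library left out, transcripts summed per symbol). The 5 receptor genes that rose kept direction in all 10, and their call in those with all 4 libraries. The fits share the same libraries and are not independent. None of 27 genes (the members and the pathway genes named as called) reversed in any of 253 gene-by-fit values. The other genes named were not followed over the fits. The number of receptor genes called higher was 5 to 8, with 8 without EtOH library A, 6 without OHT library B (Tlr8 added) and 6 without a filter (Tlr6 added); none was called lower in any fit. At an adjusted p under 0.01 or under 0.1 in the authors' deposited table it stayed at 5. Calls over all transcripts, 654 higher and 335 lower in the authors' deposited table, were 432 and 163 under 0.01. They were 1102 and 623 with limma-voom, 1168 and 488 with library totals, 1233 and 524 with median-of-ratios factors recomputed without the added read, 1646 and 800 without a filter, 784 and 597 with at least 50 reads, and 1110 and 629 with transcripts summed. Leaving out 1 library gave 533 to 1717 higher and 112 to 1112 lower (665 without EtOH library B), the highest without EtOH library A and the lowest without OHT library A. Genes of the pathway lists called higher, 16 in the authors' deposited table, numbered 29 with limma-voom, 30 with library totals, 32 with those factors, 41 without a filter, 28 with transcripts summed and 19 to 46 with 1 library left out, and 1 to 2 were called lower. The endosomal median log2 fold change was 1.57 in the authors' deposited table and 1.92 by limma-voom with all libraries. By limma-voom with 1 library left out it was 1.48 to 2.50. The surface median was 1.03 in the deposited table, 1.14 by limma-voom and 1.08 to 1.995 with 1 library left out. Both medians were highest without EtOH library A, and these limma-voom endosomal medians lack Tlr3. Chosen after seeing the data were the endosomal median above the floor of 3 reads (1.91) and the assumption that a library left alone varies like the other group. No paired analysis was possible because nothing links the resolved libraries to the replicate numbers of the labels. Few reads underlie the values of Tlr3 and Tlr1 and the EtOH values of Tlr5 and Tlr9.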
